A study of Homo sapiens with 4 samples.

Results

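The regions described here are the m6A peaks of control cells that the deposited annotation placed in a 3′ UTR and that met a peak of YTHDF2-depleted cells, called shared 3′ UTR peaks below. The members were chosen by measured values, namely the peak calls of both libraries, their positions and their annotation. A peak was counted as shared when its exonic blocks overlapped, by at least 1 bp on the same strand, a block of any peak called in the depleted cells. Of the 31057 distinct control peaks, 18357 were annotated to a 3′ UTR and 11190 of those were shared, in 7163 genes. The other 7167 met no peak of the depleted cells and serve as the comparison. Not all calls were strong. Of the shared peaks, 7132 (63.7%) had an FDR of at most 0.05 in both conditions, and the rest were above it in at least 1. The cells were A549, an established lung adenocarcinoma line, carrying either the vector control (shNC) or 1 shRNA against YTHDF2 delivered by lentivirus (shY2-2). From each line, fragmented poly(A) RNA was sequenced once directly (input) and once after pull-down with an m6A antibody (IP), which makes 4 libraries. A difference between conditions is therefore a difference between single libraries, has no replicate check and carries no p-value. Of the A549 markers, KRT8 (FPKM 523 in shNC and 322 in shY2-2), KRT18 (388 and 281), ALDH1A1 (2157 and 1238) and AKR1B10 (1801 and 2044) were high, KRT19 (25.9 and 12.9) lower and EPCAM (2.02 and 1.20) low. The leukocyte gene PTPRC, the endothelial genes CDH5 and PECAM1 and the fibroblast gene DCN stood between 0.00498 and 0.259 FPKM in both libraries, and the fibroblast gene COL1A1 stood at 0.834 and 1.64. Of the alveolar type II genes, SFTPC stood at 0.0303 FPKM in shNC and 0.067 in shY2-2, while SFTPA1, SFTPB and NKX2-1 had no value.

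N6-methyladenosine (m6A) is deposited on the adenosine of a short sequence, most often GGAC, by the METTL3 and METTL14 methyltransferase complex. On mRNA it gathers around the stop codon and in the long last exon, which holds most of the 3′ UTR. YTHDF2 is a cytoplasmic reader that binds m6A and recruits the CCR4-NOT deadenylase, which shortens the poly(A) tail and starts decay. A 3′ UTR peak present with and without a reader marks a stretch of RNA that the antibody enriched in both settings.

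The GGAC core, or GGACT with the following base, was looked up in the stretch that the shNC peak and its shY2-2 partner have in common. The windows below show the match nearest the middle of that stretch in 14 of the genes described later, with GGACT preferred, on GRCh38. Each runs 5′ to 3′ along the RNA over 21 nt, written as DNA, and capitals mark the motif. They are shown because they are the candidate sites inside the peaks whose values follow. A match is a description of the reference letters and not a mapped m6A site.
DOHH (chr19:3491231-3491251, minus strand): ttggggtgGGACTctgcggga
NOP14 (chr4:2938601-2938621, minus strand): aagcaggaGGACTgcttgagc
GANAB (chr11:62624927-62624947, minus strand): ttgggggaGGACTaatgggga
OAZ2 (chr15:64687819-64687839, minus strand): gttcttagGGACTggatactt
AKT2 (chr19:40232083-40232103, minus strand): ggtggggtGGACagagaccac
NMT1 (chr17:45108860-45108880, plus strand): gggaacagGGACgggggagct
GABARAPL1 (chr12:10221876-10221896, plus strand): gagcacctGGACTtgggggta
CNOT2 (chr12:70354765-70354785, plus strand): tggtcaggGGACTttgtcgcc
DUSP1 (chr5:172768499-172768519, minus strand): aagagaaaGGACTcagtgtgt
ID3 (chr1:23558255-23558275, minus strand): ggagcgaaGGACTgtgaactt
FZD7 (chr2:202036710-202036730, plus strand): ctgaacggGGACTgtgagcga
MET (chr7:116798143-116798163, plus strand): catcaacaGGACTacacactt
PGAM1 (chr10:97432824-97432844, plus strand): tttactaaGGACTttggggag
YTHDF2 (chr1:28743693-28743713, plus strand): tctgctgtGGACTacaacaca
The DOHH, NOP14 and GANAB matches lay 251, 220 and 878 nt after the stop codon of the canonical transcript. Those of OAZ2, AKT2 and NMT1 lay 875, 1779 and 3231 nt after it. The matches of GABARAPL1 and ID3 lay 34 and 176 nt after the stop codon, and those of DUSP1, PGAM1 and FZD7 lay 253, 310 and 348 nt after it. CNOT2 had its match at 860 nt and MET at 2029 nt. The YTHDF2 match lay at -307 nt from the stop codon, in the coding sequence, although the peak around it was annotated to the 3′ UTR.

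Shared peaks made up 61.0% of all shNC 3′ UTR peaks (95% Wilson interval 60.2 to 61.7, which covers the counting of peaks only), against 48.5% (47.7 to 49.4) of the 12700 peaks at other locations. Over all locations 55.9% of shNC peaks met a shY2-2 peak. The rule itself fixed these shares, so they describe the lists and were not tested. At the edge of the rule, the peaks of SNRNP40, DPH6 and SLC35B1 were counted with an overlap of 1 nt, while those of TRIM11 and OPN3 missed a shY2-2 peak by 2 nt and that of VPS4A by 5 nt. In all, 177 shared peaks rested on an overlap of 30 nt or less, and 127 peaks outside lay within 30 nt of a shY2-2 peak. The median fold enrichment was 2.01 in the first of these groups and 2.27 in the second.

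Most shared peaks coincided over much of their length. All shY2-2 peaks met by a member together covered a median of 81.8% of its exonic bases (quartiles 55.6 and 100%). The shNC peak and its partner of longest overlap had identical blocks in 797 pairs (7.12%). The 3′ end was the same base in 28.1% of pairs and the 5′ end in 19.7%. A single shY2-2 peak was met by 8790 members, 2 by 2050 and 3 or more by 350. The partner with the longest overlap was also annotated to a 3′ UTR in 10788 pairs (96.4%), to another exon in 269 and to a 5′ UTR in 133. Members were not all separate stretches of RNA, since 1674 (15.0%) overlapped another member and merging left 10311 regions. In 989 members (8.84%) part of the sequence also belonged to another gene on the same strand.

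The control peaks that recurred were the longer and more significant ones. A longer peak has more bases with which to meet the overlap rule of 1 bp, and the FDR comes from the calls that the rule used. The values by length and FDR are therefore a description. The median exonic length was 361 nt (quartiles 241 and 540) for shared peaks and 210 nt (151 and 300) for peaks of the shNC list alone. An FDR of at most 0.001 in the shNC list was found for 53.9% of shared peaks and 7.74% of the others. Among shNC 3′ UTR peaks with an FDR of at most 1e-10, 98.4% were shared, against 33.5% of those above 0.05. The shared percentage went from 30.8% for peaks up to 150 nt to 92.6% for peaks over 600 nt. It was 50.5% in genes with an shNC FPKM from 1 to 5 and 81.3% in genes at 20 or more, where FPKM is a count of fragments scaled to exon length and to all mapped fragments of the library. Fold enrichment did not order the peaks in this way, with 52.1% shared below 1.5, 67.3% from 2 to 4 and 55.8% at 4 or more. The numbers of reads behind the peaks are not in the values used here, so how depth bears on these percentages was not tested.

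The 3′ UTR label was then compared with the canonical GENCODE transcripts. The middle base of the peak fell in the 3′ UTR for 7028 shared peaks (62.8%, Wilson interval 61.9 to 63.7) and in the coding sequence for 2382 (21.3%). A further 1346 (12.0%) had their middle outside the canonical transcript, 404 were on transcripts without a coding sequence and 30 on genes outside the reference. Of the 10756 shared peaks on coding transcripts, 8768 (81.5%) touched the 3′ UTR and 4682 (43.5%) lay wholly in it. Many of those centred in the coding sequence were stop codon peaks, since 1485 of the 2382 (62.3%) ran across the stop codon. Over all 2382 the median distance from the peak middle to the stop codon was 141 nt.

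Shared peaks sat closer to the stop codon than peaks of the shNC list alone. The stop codon itself was covered by 32.2% of shared peaks (Wilson interval 31.4 to 33.1) and 12.4% (11.6 to 13.2) of the others. Among the 4588 members with an FDR of at most 0.001 in both lists it was covered by 47.4% (45.9 to 48.9). For peaks centred in the 3′ UTR, the median distance after the stop codon was 603.5 nt when shared, 403 nt when shared at the stricter FDR, and 1048 nt in the shNC list alone. Their UTRs also differed in length, with medians of 1830.5, 1358 and 2842.5 nt. Within UTRs of 1000 to 2000 nt, 18.2% (16.5 to 20) of shared peaks and 16.2% (13.8 to 18.8) of the others were centred within 200 nt of the stop codon, with overlapping intervals. Within UTRs of 2000 to 4000 nt, 14.9% (13.4 to 16.4) of shared peaks and 10.7% (9.31 to 12.3) of the others were. Within UTRs of over 4000 nt these values were 13.2% (11.4 to 15.3) and 7.62% (6.31 to 9.17). Peak length and FDR differed between the groups as well, and their part in the stop codon values was not tested.

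**Figure D1:**
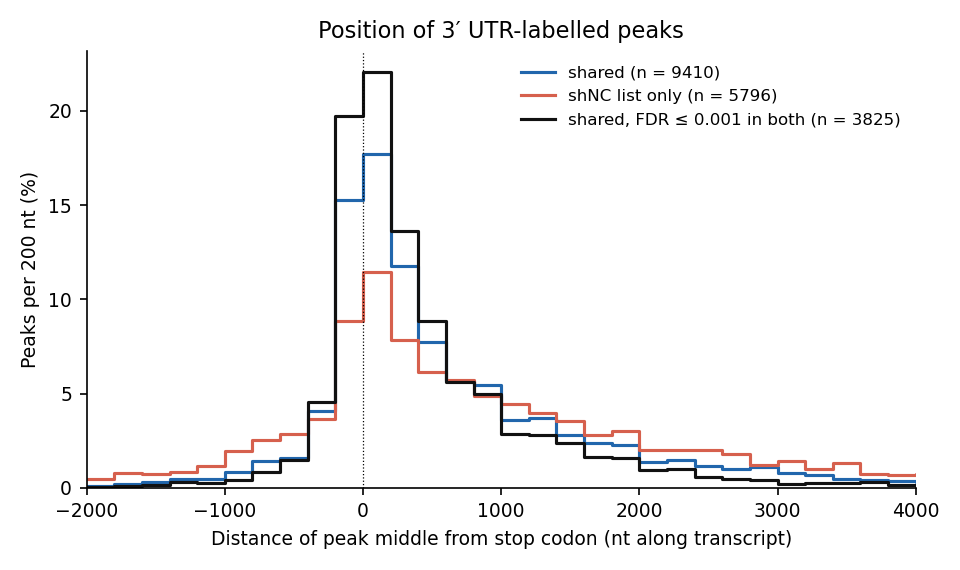
Percentage of 3′ UTR-labelled peaks in each 200 nt bin of the distance from the stop codon to the peak middle, along the canonical transcript, for shared peaks (blue), peaks of the shNC list alone (red) and shared peaks with an FDR of at most 0.001 in both lists (black). All 3 lines are highest just after the stop codon (dotted), and the black line is the highest there.

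A second group of members reached the other end of the transcript. This was looked up for peaks centred in the 3′ UTR whose end could be placed. Their 3′ end lay within 30 nt of the annotated transcript end in 17.8% (16.8 to 18.7) of shared peaks. The share was 5.08% (4.46 to 5.78) in the shNC list alone and 26.9% (25.1 to 28.8) among shared peaks at the stricter FDR. The poly(A) signal AATAAA, which directs cleavage and polyadenylation, was present in 32.8% of shared peaks, 46.0% of the stricter ones and 15.8% of the shNC-only peaks. Shared peaks were longer, which raises such shares. Per kb AATAAA occurred 0.967 times in shared peaks against 0.735 times for its reverse complement TTTATT. In shNC-only peaks it occurred 0.772 times per kb against 0.791 times. In the central 200 nt of peaks at least that long the share with AATAAA was 10.7% in shared and 11.6% in shNC-only peaks, so the excess lay outside the peak centres.

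The m6A motif was more frequent in shared peaks than in the other shNC peaks. GGAC, searched on the RNA strand and compared with its reverse complement GTCC as a count of the same base pairs on the other strand, occurred in 68.6% of shared peaks (67.7 to 69.5) and 48.2% (47.0 to 49.4) of shNC-only peaks. Shared peaks were longer, and at a fixed length of 200 nt around the centre the shares were 53.0% (52.0 to 54.0) and 47.8% (46.2 to 49.3). The density was 3.93 GGAC and 3.09 GTCC per kb in shared peaks, a ratio of 1.27, and 3.40 and 2.92 per kb in shNC-only peaks, a ratio of 1.16. GGACT, which contains GGAC, had a ratio to its reverse complement AGTCC of 1.41 in shared and 1.23 in shNC-only peaks. The other cores searched stood closer to their reverse complements in shared peaks, with ratios of 1.04 for AGAC, 1.16 for TGAC and 1.10 for GAAC.

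Neighbouring sequence held fewer GGAC matches. For 2437 shared peaks a stretch of equal length in the same exon could be taken as a flank, and GGAC occurred in 57.2% (55.2 to 59.2) of these peaks and 49.3% (47.3 to 51.3) of their flanks. The density was 3.21 per kb in the peaks and 2.41 per kb in the flanks. In members lying wholly in the 3′ UTR the GGAC to GTCC ratio was 1.14, under the 1.27 of all members, while the GGACT to AGTCC ratio was 1.44, near the 1.41 of all members. Among the 4588 members at the stricter FDR, the share holding GGACT was 27.3% (22.3 to 33.0) at an shNC fold enrichment of up to 1.5, then 41.3%, 48.2% and, at 4 or more, 53.6% (49.9 to 57.3). GGACT density in the lowest and the highest of these classes was 0.985 and 1.29 per kb. The fold enrichment comes from the values that chose these members, so this order is a description.

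**Figure D2:**
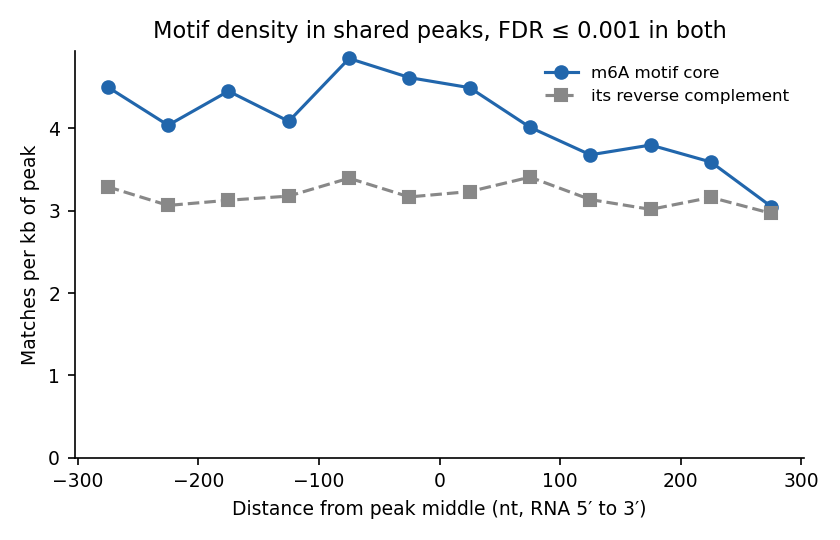
Matches per kb of the m6A core and of its reverse complement in 50 nt bins along shared peaks with an FDR of at most 0.001 in both lists, by distance from the peak middle in the RNA direction. The core stands between 4.04 and 4.85 per kb in every bin before the middle, with 4.50 at the 5′ edge, and goes from 4.50 just after the middle to 3.05 per kb at the 3′ edge, while the reverse complement stays between 2.97 and 3.41 per kb.

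Sequence elements of other 3′ UTR regulators were counted in the same way. TGTANATA, the element bound by Pumilio proteins, repressors that also act through deadenylation, was present in 5.83% (5.41 to 6.28) of shared and 3.57% (3.17 to 4.03) of shNC-only peaks. Its density was 0.146 per kb against 0.0772 per kb for its reverse complement in shared peaks, and 0.159 against 0.0922 per kb in shNC-only peaks, so per base it was not higher in shared peaks. TATTTA, part of the AU-rich elements that mark unstable mRNAs, had 0.445 matches per kb in shared peaks and 0.451 per kb for its reverse complement.

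Fold enrichment, the deposited linear ratio of IP over input, was similar in both lists. Called in both by the rule, the members had a median of 2.25 in shNC and 2.13 in shY2-2. The log2 ratio of shY2-2 over shNC had a median of -0.06 with quartiles of -0.35 and 0.21. The value was higher in shY2-2 for 4869 members, lower for 6222 and equal for 99. A log2 ratio above 1 was seen for 515 members (4.60%), beside 5.3% of all shNC peaks of any location with a partner, and one below -1 for 576 (5.15%), beside 5.7%. With an FDR of at most 0.001 in both lists, 131 of 4588 members (2.86%) were above 1, beside 3.89% over all locations, and 127 (2.77%) were below -1, beside 3.39%. The shares of members stood near or under these backgrounds. Across members the ranks of the 2 fold enrichments had a Spearman's rho of 0.66 over 11190 peaks and 0.72 over the 4588 stricter ones, which share genes and sequence and are not independent points.

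Large fold enrichments recurred at a few fixed values. Between 4 and 10, 41.1% of the shNC values of members were multiples of 0.763 to within 0.0075, and 47.3% of the shY2-2 values were multiples of 1.156. For members outside the stricter FDR these shares were 56.3% and 61.4%, against 17.9% and 24.4% for those inside it. Values on such steps were thus more common where the FDR was weak, but large values at the stricter FDR stood on them too. Of the 22 peaks named next for their strength or their ratio, 16 had an shNC value from 10 to 100, and 14 of these were multiples of 0.763 to within 0.075, a tolerance that takes in 19.7% of the range. For shY2-2 values from 10 to 100 it was 10 of 11, to within 0.075 of a multiple of 1.156, where the tolerance takes in 13.0% of the range. From 1 to 10, at a tolerance of 0.0075, 3 of 6 shNC values and 0 of 6 shY2-2 values were such multiples. The reads behind these steps were not analysed here, so the size of these values and of their ratios is uncertain.

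**Figure D3:**
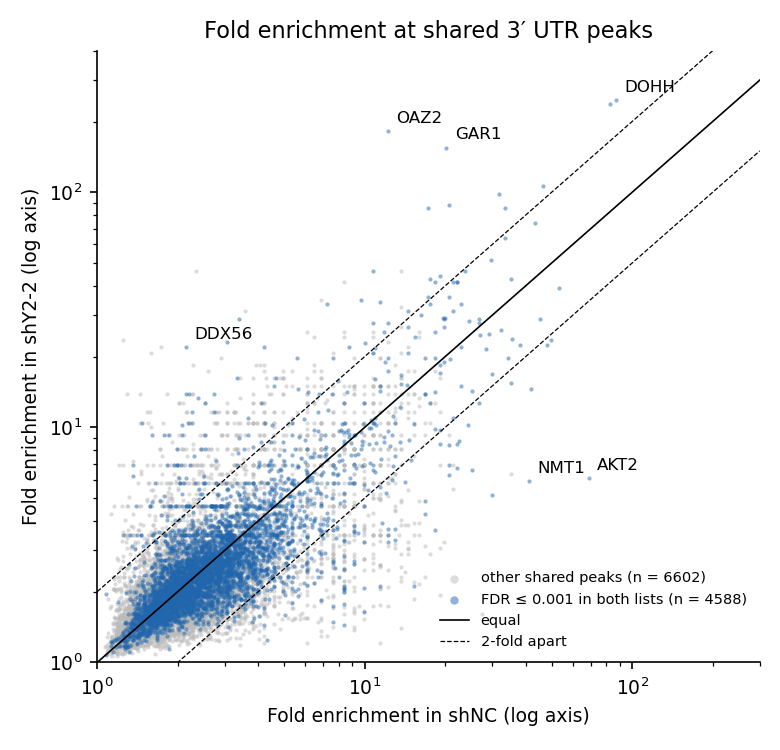
Fold enrichment of each shared 3′ UTR peak in shNC (horizontal, log axis) and in its shY2-2 partner (vertical, log axis), with the 4588 peaks at an FDR of at most 0.001 in both lists in blue and the other 6602 in grey. Points gather along the line of equality, 90.3% of members lie between the dashed 2-fold lines, and the labelled genes are described in the text.

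The strongest members with an FDR of at most 0.001 in both lists and an FPKM of at least 1 in both input libraries, ranked by the lower of their 2 fold enrichments, were the following 10, nearly all of them with values on the recurring steps. DOHH, which completes the hypusine of the translation factor eIF5A, had a 658 nt peak with a fold enrichment of 87.0 in shNC and 246 in shY2-2, and 7 GGAC matches. CARD8, an inflammasome sensor, had 82.4 and 238. PKP3, a desmosomal plakophilin, had 43.5 and 74.0 at a peak centred 11 nt after the stop codon with 7 GGAC matches. IQCE, a ciliary protein of Hedgehog signalling, had 46.5 and 106. NOP14, a factor of small ribosomal subunit assembly, was the single one of these 10 with the lower value in shY2-2, at 53.4 and 39.3. Its shNC peak met 2 shY2-2 peaks, as did those of CARD8 and TXNDC15, so their shY2-2 values depend on the partner taken. GANAB, the catalytic subunit of glucosidase II, had 31.7 and 98.3, and TAF15, an RNA-binding protein of the FET family, had 29.7 and 51.7. HEATR3 had 35.1 and 42.8, MAGT1, a subunit of the oligosaccharyltransferase, 33.6 and 85.6, and TXNDC15 33.6 and 63.6. The HEATR3 and MAGT1 peaks, of 1734 and 1104 nt, held no GGAC. The CARD8 peak was centred outside the canonical transcript, and that of TAF15 in the coding sequence, at -313 nt from the stop codon. Most of the 10 genes had modest RNA levels, from 1.53 FPKM for CARD8 to 51.0 for GANAB in shNC.

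Under the same limits, the 6 largest ratios in each direction were those below, nearly all with at least 1 value on the steps. Of these, ARPIN had both values there. The shNC value stood on a step for OAZ2, AKT2, ARID4B, NMT1, PSMA6, DCTD and GRHPR, and the shY2-2 value for DDX56, COX18 and HNRNPM. Values above 100 were not set against the steps. Larger ratios outside the limits are not named. OAZ2, an antizyme that restrains polyamine synthesis, had a fold enrichment of 12.2 in shNC and 182 in shY2-2, a log2 ratio of 3.90. DDX56, a nucleolar helicase, had 2.15 and 22.0, and COX18, an insertase of the inner mitochondrial membrane, 3.40 and 28.9. GAR1, of the H/ACA ribonucleoprotein that guides pseudouridylation, had 20.2 and 155. ARPIN, an inhibitor of the Arp2/3 complex, had 3.05 and 23.1, and HNRNPM, a splicing regulator, 1.47 and 10.4. On the other side, AKT2, a kinase of insulin signalling, had 68.7 in shNC and 6.09 in shY2-2, a log2 ratio of -3.50. Of the 6 falls, the shNC peaks of AKT2 and ARID4B met 3 shY2-2 peaks and those of DCTD and PSMA6 met 2, so these ratios depend on the partner taken. NMT1, an N-myristoyltransferase, had 41.2 and 5.90, PSMA6, a proteasome subunit, 29.8 and 5.15, and ARID4B, a chromatin protein, 15.3 and 2.12. DCTD, a deaminase of dCMP, had 9.92 and 1.64, and GRHPR, a glyoxylate reductase, 8.39 and 1.44. The RNA of these genes differed far less, with log2 ratios, after 1 was added to each FPKM, from -0.33 for DCTD to 0.58 for OAZ2. The ARPIN, ARID4B and PSMA6 peaks also contained sequence of another gene on the same strand and were centred outside the canonical transcript. Those of GAR1 and GRHPR were centred in the coding sequence, at -2 and -17 nt from the stop codon. The genes with the largest ratios were picked for the size of their values, which are given as a description.

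**Figure D4:**
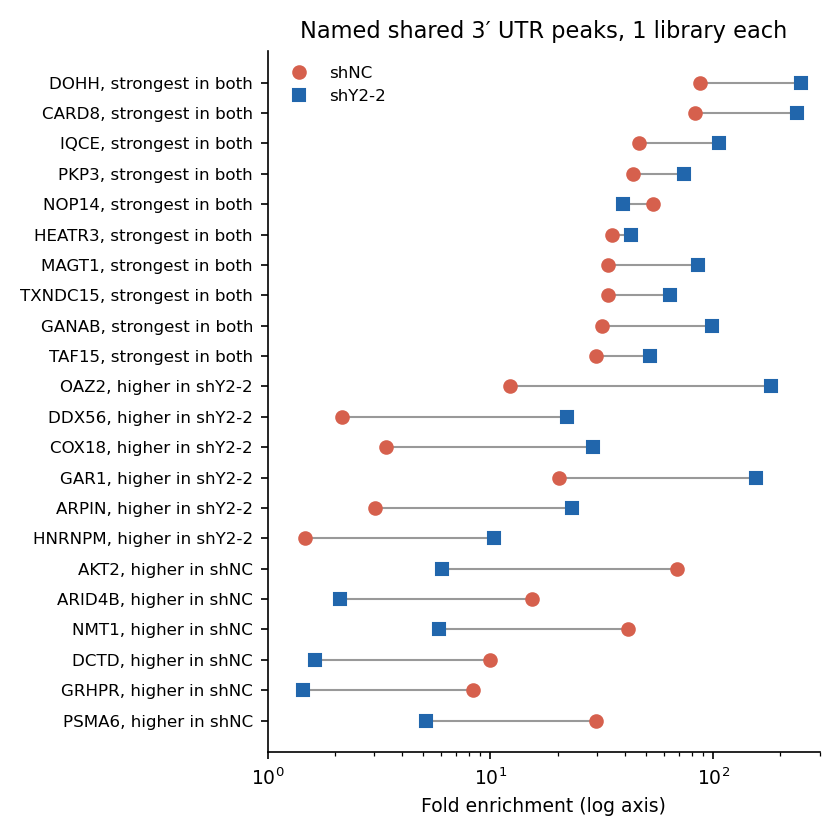
Fold enrichment in shNC (circles) and shY2-2 (squares) on a log axis for the 10 strongest shared peaks and the 12 with the largest ratios among those with an FDR of at most 0.001 in both lists and an FPKM of at least 1 in both inputs, 1 library per condition. OAZ2 spans 12.2 to 182 and AKT2 spans 68.7 to 6.09.

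Several genes carried many members. Of the 7163 genes, 4439 had 1 shared peak, 1862 had 2, 577 had 3 and 285 had 4 or more. KLC1, a kinesin light chain, had 10, and HEXA, a lysosomal hexosaminidase subunit, had 9. HNRNPU, a nuclear scaffold protein, had 8, with fold enrichments of 1.13 to 2.56 in shNC. TXNDC5, a disulfide isomerase of the endoplasmic reticulum, also had 8, which formed overlapping peaks of nearly the same extent, such as those at chr6:7882352-7882979 and chr6:7882362-7882962. TIMM50 and PRRC2B had 7 each. Overlapping peaks of a gene are counted apart in these numbers. No member of KLC1 or HEXA was centred in the 3′ UTR of the canonical transcript, and most of HNRNPU were not either. The PRRC2B members stood on a gene outside the reference. The 3′ UTR label of these members thus rests on the deposited annotation.

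YTHDF2, the gene targeted by the shRNA, was itself among the genes with shared peaks. Its RNA stood at 3.56 FPKM in shNC and 1.02 in shY2-2. The log2 ratio was -1.18 with 1 added to each FPKM, which makes the fall look smaller than the FPKM values themselves show. The shared peak at chr1:28769446-28769775, 658 nt after the stop codon at its middle, had a fold enrichment of 2.11 in shNC and 3.62 in shY2-2. The other, with blocks within chr1:28743517-28769147 and 8 GGAC matches, had 1.64 and 3.31. Both were thus called on the RNA that remained. AXIN1, the scaffold of the destruction complex that degrades beta-catenin, was not a member, since its 3′ UTR peaks stood in the shY2-2 list alone. These were weak calls, with fold enrichments of 1.55 and 1.38 at an FDR of 0.158 and 0.0151.

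Gene lists are given beside genes of a like RNA level, since 68.1% of genes at 5 to 20 FPKM in shNC had a shared 3′ UTR peak and 36.6% had one at the stricter FDR. Values for named list genes below are those of their strongest shared peak at the stricter FDR, and a gene can have a stronger one outside it. Of the 21 writers, erasers and readers, all of them kept by the FPKM minimum of 1 described with the RNA values, 16 (76.2%) had one, beside 53.8% of all 12268 genes kept, and 8 (38.1%) had one at the stricter FDR, beside 27.7%. With a median of 7.03 FPKM, the list lies near the genes of its level. The reader YTHDF1 had a peak at 3.58 in shNC and 3.57 in shY2-2, and HNRNPA2B1, a nuclear RNA-binding protein, one at 5.15 and 4.76. METTL16, the methyltransferase of the SAM synthetase mRNA, had 5 shared peaks, the strongest at the stricter FDR at 4.79 and 3.47. The demethylase ALKBH5 had 5.34 and 3.33, and HNRNPC, a nuclear RNA-binding protein, 3.92 and 2.31. METTL3 had 2 shared peaks and METTL14 had 1, none at the stricter FDR, while WTAP, IGF2BP2 and YTHDC1 had none.

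Genes of the decay machinery that YTHDF2 recruits were members too. Of 28 deadenylation and decay genes kept, 18 (64.3%) had a shared 3′ UTR peak, and 13 (46.4%) had one at the stricter FDR, beside 53.8% and 27.7% of all genes kept, at a list median of 8.41 FPKM. DDX6, the helicase that links deadenylation to decapping, had 14.5 in shNC and 20.8 in shY2-2 at a peak 3844 nt after the stop codon. BTG2, which stimulates the deadenylase, had 4.27 and 4.10. The CCR4-NOT subunits CNOT3, CNOT2 and CNOT11 had 3.97 and 3.12, 2.98 and 2.72, and 2.30 and 2.24. TNKS1BP1, a partner of CCR4-NOT, had 9.81 and 8.78 at a 2035 nt peak with 25 GGAC matches, whose middle lay at -1981 nt from the stop codon of the canonical transcript, in the coding sequence. The scaffold CNOT1, the decapping factor EDC4 and the exonuclease XRN1 had no shared 3′ UTR peak.

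Wnt and beta-catenin pathway genes had shared peaks in 27 of 45 genes kept (60%) and at the stricter FDR in 14 (31.1%), beside 53.8% and 27.7% of all genes kept, at a list median of 6.87 FPKM. AXIN2, a feedback inhibitor and paralogue of AXIN1, had 3 shared peaks, one at 5.30 in shNC and 5.78 in shY2-2 and centred 99 nt after the stop codon. The receptor FZD7 had 3.20 and 3.40. TNKS2, a tankyrase that marks axins for degradation, had 6.96 and 3.37. The co-repressor TLE1 had 2.49 and 3.42, and TBL1X, an exchange factor on beta-catenin targets, 3.39 and 2.34. MYC, a transcriptional target, had 2.87 and 3.20 at a peak across the stop codon. CTNNB1, which encodes beta-catenin, and CCND1, a cyclin gene induced by the pathway, had 2 and 4 shared peaks. The co-receptor gene LRP6 had 5 shNC 3′ UTR peaks, of which none was shared.

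Shares in other signalling lists, with medians of 5.96 to 9.82 FPKM, also lay between the 53.8% of all genes kept and the 68.1% at 5 to 20 FPKM. At the stricter FDR they were 37.0% for TGF-beta and BMP genes, 40.5% for inducible factors and 16.7%, or 3 of 18, for kinases, beside 27.7% of all genes kept. TGF-beta and BMP genes had a shared peak in 16 of 27 (59.3%), among them SMAD3 at 2.31 and 2.04, BAMBI, a decoy receptor, at 2.44 and 3.92, and ID3, an inhibitor of helix-loop-helix factors, at 3.08 and 1.96. ACVR1B, an activin receptor, stood at 2.76 and 2.58, SMAD2 at 2.08 and 2.40 and SMURF1, a ubiquitin ligase, at 2.07 and 2.31. Inducible transcription factors and feedback regulators had one in 24 of 37 (64.9%). In that list DUSP4 and DUSP1, phosphatases of MAP kinases, had 12.6 and 9.25, and 4.09 and 3.26. SOX4 had 5.65 and 6.86, IER3 5.17 and 6.05, CEBPD 3.63 and 4.73, and ZFP36L2, which promotes decay through AU-rich elements, 3.18 and 4.18. Receptor tyrosine kinases had one in 11 of 18 (61.1%), with MET at 3.93 and 3.30, ERBB2 at 3.20 and 2.88 and IGF1R at 2.85 and 1.60. The ID3 and ERBB2 peaks were centred outside the canonical transcript. That of SMAD2 was centred in the coding sequence, at -62 nt from the stop codon. All these lists were described by counts, with no test.

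In the glycolytic and ribosomal lists most genes with a shared peak had one at the stricter FDR. Glycolytic enzymes had a shared peak in 12 of 16 genes (75%), all 12 at the stricter FDR. PFKL had 3.6 and 2.64, PKM 3.06 and 3.17, TPI1 3.15 and 2.08, PFKM 3.05 and 1.82, ENO2 2.69 and 2.64, and PGAM1 2.12 and 2.19. The PKM peak was centred in the coding sequence, at -1309 nt from the stop codon, and the TPI1 peak outside the canonical transcript. Cytosolic ribosomal protein genes had one in 52 of 78 (66.7%), 51 of them (65.4%) at the stricter FDR, beside 27.7% of all genes kept and 60.8% of genes above 100 FPKM in shNC. RPL37A had 8.58 and 14.2, RPL27A 11.0 and 8.55, RPL38 4.80 and 3.75, RPS19 4.71 and 4.22, RPL39 3.59 and 5.78, and RPL34 3.56 and 4.48. The RPL39 and RPL34 peaks were centred outside the canonical transcript, and that of RPL38 in the coding sequence, at -69 nt from the stop codon. The median shNC FPKM was 121 and 162 in these groups, beside 5.18 over all genes kept. Over all genes, the share with a shared peak was 38.0% at 1 to 5 FPKM in shNC, 68.1% at 5 to 20, 78.9% at 20 to 100 and 63.3% above. Processed pseudogenes of ribosomal protein genes can take part of their reads, which leaves their values uncertain.

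The RNA of genes with a shared 3′ UTR peak was then compared between the input libraries, as log2((FPKM shY2-2 + 1)/(FPKM shNC + 1)) over genes that reached an FPKM of 1 in either library, a scale that understates the change of low genes. The input libraries also enter the fold enrichments, so the peak and RNA values share them. The 6599 genes with a shared peak had a median of 0.03 (quartiles -0.22 and 0.26), beside 0.00 for all 12268 genes kept and -0.03 for the 5669 without one. A log2 ratio above 1 was found for 62 of the 6599 (0.940%), beside 0.986% of all genes kept, and one below -1 for 118 (1.79%), beside 2.14%. Large RNA differences were thus about as frequent as over all genes. The 3400 genes with a shared peak at the stricter FDR had a median of 0.10 and the 3199 with other shared peaks one of -0.05. The 1731 genes with 3′ UTR peaks in the shNC list and none shared had -0.13. By the highest shNC fold enrichment of the gene at the stricter FDR, the medians were 0.06 up to 2, 0.10 from 2 to 3, 0.12 from 3 to 5 and 0.14 above. By the shY2-2 fold enrichment they were 0.08, 0.11, 0.08 and 0.14, with no steady order.

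RNA level moved with these medians. Genes with a mean FPKM of 1 to 5 had -0.01 with and -0.06 without a shared peak, and genes of 5 to 20 had 0.03 and 0.01. At 20 or more the order turned, with 0.10 for the 1413 genes with a shared peak and 0.16 for the 455 without. Ribosomal protein genes, at a median of 0.36 as a list and among its members with shared peaks alike, lay far above the medians of these classes. The part of RNA level in the other medians was not tested.

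**Figure D5:**
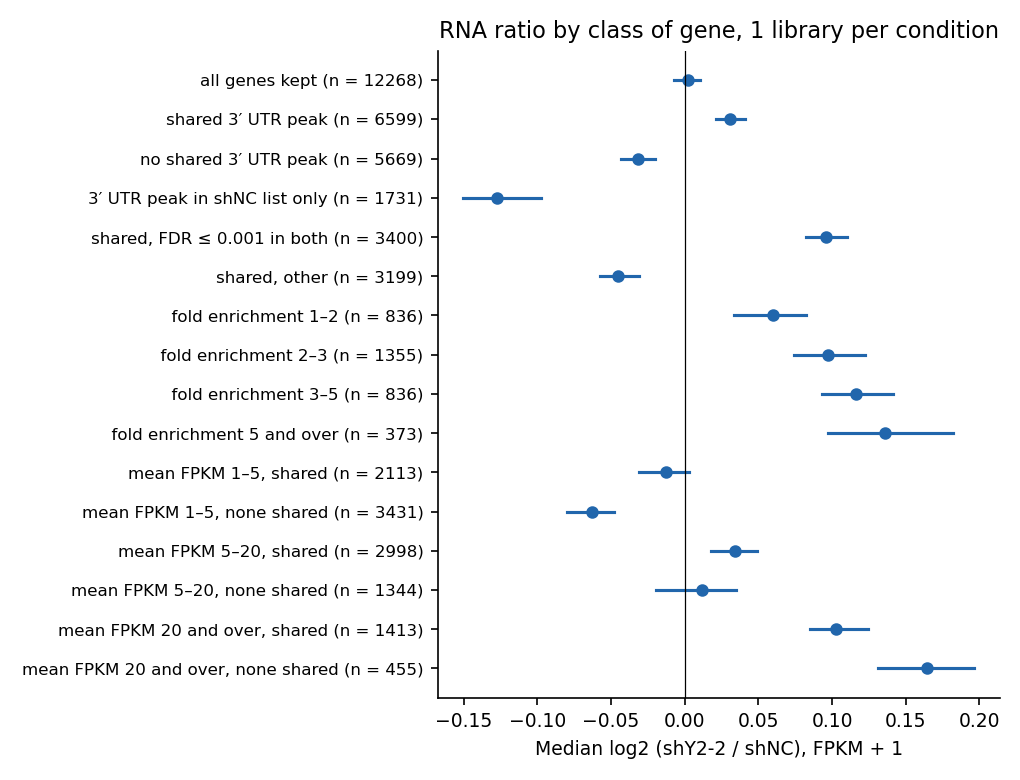
Median log2 ratio of FPKM (shY2-2 over shNC, with 1 added) for classes of genes, with 95% intervals from order statistics that cover the number of genes and not library error. Genes with a shared peak stand at 0.03 and those without at -0.03, and at a mean FPKM of 20 or more the order is reversed, at 0.10 and 0.16.

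The 5 highest and 5 lowest RNA ratios among genes with a shared peak and an FPKM of at least 5 were also looked up. HMOX1, the heme oxygenase induced by oxidative stress, went from 69.4 FPKM in shNC to 238 in shY2-2, while its peak had a fold enrichment of 8.05 and 9.63. GABARAPL1, an autophagy protein, had 2.81 and 14.7 FPKM, with a fold enrichment of 26.7 and 12.7 at a peak centred 40 nt after the stop codon. MPZL1, a cell surface receptor of the immunoglobulin family, had 5.38 and 25.5 FPKM. SELENOF, a selenoprotein of the endoplasmic reticulum, had 7.77 and 31.9 FPKM, and MED29, a Mediator subunit, 7.82 and 30.6. At the low end, DAG1, the dystroglycan gene, had 17.5 and 1.06 FPKM, with peak values of 2.20 and 1.80. FN1, which encodes the matrix protein fibronectin, had 32.8 and 8.33 FPKM, and ANXA3, an annexin, 15.3 and 3.57. The FN1 peak looked up was 61 nt long and centred outside the canonical transcript, with an FDR of 0.318 in shNC and 0.257 in shY2-2. That of MED29 had an FDR of 0.0603 in shNC and 7.41e-07 in shY2-2. PTGES3L-AARSD1 had 9.02 and 0.229 FPKM, and its peak also contains sequence of AARSD1. MIR3658 was listed at 50.9 and 1e-05 FPKM within sequence of UCK2, so no ratio is given. For both of these, reads of the overlapping genes cannot be told apart in gene values.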

How the data were processed

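The data are 4 libraries of A549 cells, an input and an m6A IP library per condition. HISAT2 was used by the authors for mapping to GRCh38, and the deposited FPKM values per gene were made with StringTie from the input libraries. The authors called peaks with exomePeak on IP against input of each condition and annotated them with ChIPseeker. The deposited p-value, log10 scores of the p-value and FDR, and fold enrichment, a linear ratio, are the authors' values. Tool versions are not given in the sources used here. Depth behind FPKM and peaks is unknown, so no interval or floor based on reads is given. No FPKM column was without a sample (0).

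Duplicate rows were removed, leaving 31057 and 27344 distinct peaks. Peaks were paired when exonic blocks of the same strand shared 1 bp or more, and the partner was the shY2-2 peak with the longest overlap. Positions were taken from the canonical transcripts of GENCODE release 44, and motifs from the spliced reference sequence. A pseudocount of 1 and an FPKM minimum of 1 were used. Shares have 95% Wilson intervals. No test between conditions was possible with 1 library each. Steps were tested on simulated data.

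The members and gene lists were chosen with earlier results of these data known. Named genes were, among peaks with an FDR of at most 0.001 in both lists and genes with a standard symbol and an FPKM of at least 1 in both inputs, the 10 peaks with the highest lower fold enrichment, and the 6 largest ratios each way. To these were added the 6 genes with most shared peaks, the 5 highest and 5 lowest RNA ratios at an FPKM of at least 5, and up to 6 per gene list by lower fold enrichment at that FDR, with YTHDF2 and AXIN1. Further list genes were chosen once values were known. Computations used pysam 0.24.0 for sequence, SciPy 1.17.1 for intervals, matplotlib 3.10.9 for plots, and pandas 2.3.3 with NumPy 2.4.6 in Python 3.11.15.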

Additional observations from a re-analysis of the deposited data

How the results depend on the processing

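No paired analysis was possible because each condition has 1 library of each kind. Of the 64 values recomputed under alternatives, 19 stayed close to the value as reported and 45 did not. For counts, close meant within 1.5 times of the reported value, and for shares, ratios and medians within its 95% interval. The median log2 ratios of fold enrichment and of RNA kept their sign, and the other values have no sign to change. The count of 11190 shared 3′ UTR peaks (61.0%) became 7211 (65.1%) at an FDR of at most 0.05 in both lists, 4642 (70.5%) at 0.001 (any partner at that FDR, where the 4588 of the report take the partner with the longest overlap), 5336 (49.2%) at a fold enrichment of at least 2, 1008 (32.2%) at 4, and 7117 (62.1%) with location by reference midpoint. The share was 47.4% with an overlap of at least 50% of the shNC peak, 41.4% with 50% reciprocal overlap and 59.2% with a partner also annotated to a 3′ UTR. These alternatives take fewer peaks by construction. The median log2 fold enrichment ratio (-0.06) was -0.0381 with the highest partner, -0.0446 at FDR 0.001, -0.048 with reciprocal overlap and -0.00401 after centring on shared peaks of any location. Members above 1 were 5.21, 2.86, 3.77, 2.75 and 5.16% with the highest partner, FDR 0.001, one-to-one pairs, reciprocal overlap and centring, and members below -1 were 4.67, 2.77, 3.94 and 4.51% with the highest partner, FDR 0.001, reciprocal overlap and centring. The median RNA ratio was 0.0544 at an FPKM of at least 5 and 0.10 at FDR 0.001. Genes above 1 and below -1 were 118 and 213 with a pseudocount of 0.1 and 34 and 48 at FDR 0.001. The GGAC to GTCC ratio was 1.36 in the central 100 nt and 1.14 in peaks wholly in the 3′ UTR, an alternative chosen after seeing the data, and the share with GGAC was 32.2%, 60.0% and, at FDR 0.001, 79.8%. The median distance after the stop codon was 403 nt at FDR 0.001, and the share centred in the 3′ UTR was 59.7% there and 63.8% by the common segment. At FDR 0.001, genes with a shared peak numbered 14 for Wnt, 8 for m6A, 10 for TGF-beta, 15 for inducible and 3 for kinase genes. Other causes were not tested. Classes by shY2-2 fold enrichment and by mean FPKM were also added after seeing the data. FPKM and fold enrichment carry no depth, so small differences between the libraries cannot be weighed.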
